A study of Mus musculus with 12 samples.

Results

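The data are RNA-seq libraries of pancreatic ductal adenocarcinomas from gemcitabine-treated KPC mice that carried 1 intact copy of Cdh11 (KPC/CDH11+/-, 3 mice) or 2 (KPC/CDH11+/+, 3 mice). The members were chosen by title: the 3 libraries titled heterozygous with gemcitabine and the 3 titled wild type with gemcitabine, 6 of the 12 libraries of the series, and all genes were considered. The other 6 libraries are untreated tumours of the same genotypes, 3 of each, and are used here to estimate the spread between mice and to set the genotype difference under the drug beside the one without it. KPC mice are engineered to develop pancreatic ductal adenocarcinoma through alleles that a Cre recombinase switches on in pancreatic cells. The labels name neither the exact alleles nor the drug dose and schedule, nor the sex and age of the mice. All mice share the KPC alleles and a background given as C57BL/6 and 129; the labels do not say which strain alleles each mouse carried, and their part in the results was not tested. Each library is 1 tumour of 1 mouse, and RNA was taken from whole snap-frozen tissue. In bulk tissue, fewer cells of a type and less RNA per cell cannot be told apart.

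Cdh11 encodes cadherin 11, a calcium-dependent adhesion molecule made mainly by mesenchymal cells, which binds itself on neighbouring cells and is anchored to actin through catenins. Pancreatic ductal adenocarcinoma is rich in fibroblasts and collagen and usually poor in lymphocytes, and fibroblasts shape which immune cells enter. Gemcitabine is a deoxycytidine analogue that nucleoside transporters carry into cells; deoxycytidine kinase activates it, and its triphosphate stops DNA synthesis. The series title names cadherin 11 in immune suppression, matrix deposition and gemcitabine resistance, which are the functions the gene groups below were chosen to cover.

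The 6 treated libraries held between 39388328 and 49172078 expected counts. Levels are CPM, read counts divided by the TMM-scaled library size. Each fold change is heterozygous over wild type on the log2 scale, followed by ± its standard error. The defining markers of a pancreatic tumour were present in all 6: Krt8, a duct keratin, at 1062, 809 and 852 CPM in heterozygous tumours and 1207, 1087 and 2499 CPM in wild-type tumours. Col1a1, the main fibrillar collagen chain, was at 2493, 1715 and 573 CPM in heterozygous tumours and 4777, 2039 and 1813 CPM in wild-type tumours. Several tumours stood apart from the other libraries, among them wild-type mouse 1 in acinar RNA and imprinted genes, wild-type mouse 3 in interferon-induced genes and heterozygous mouse 1 in lymphocyte genes, which it alone among the heterozygotes held near the wild-type level. The genotype groups also differed in sex-linked RNA. The Y-linked genes Uty, Kdm5d, Eif2s3y and Ddx3y summed to 502, 258 and 258 CPM in heterozygous tumours, against 0.721, 0.558 and 0.743 CPM in wild-type tumours. Xist, the RNA that silences an X chromosome, stood at 0.585, 1.12 and 1.00 CPM in heterozygous tumours, against 2533, 1322 and 3569 CPM in wild-type tumours. All 3 treated heterozygotes thus expressed Y-linked genes and all 3 treated wild types expressed Xist, so that in these 6 mice genotype and sex-linked expression cannot be told apart. Where a term for sex-linked expression is fitted below, it is constant within each treated group and is estimated from the untreated libraries alone. Values with that term therefore do not separate genotype from sex-linked expression in the treated mice.

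Cdh11 itself (chr8:102632095-102785642, GRCm38) was the check of the genotype labels. It stood at 109, 141 and 72.0 CPM in heterozygous tumours, against 142, 62.2 and 123 CPM in wild-type tumours. The groups overlapped, with a log2 fold change of -0.02 ± 0.37 (95% interval -0.83 to 0.79, edgeR adjusted p = 0.996). The lower bound of the interval lies above a log2 change of -1, the change between 1 copy and 2 at equal output per copy. In untreated mice the change was -0.998 ± 0.37, with means of 112 CPM in heterozygotes and 224 CPM in wild types. The treated and untreated genotype effects differed by 0.98 ± 0.52 (edgeR unadjusted p = 0.0880). The level of Cdh11 therefore did not separate the treated tumours by label, and "heterozygous" and "wild-type" stand throughout for libraries labelled so.

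Of 24065 genes tested, 1 was higher in heterozygous tumours and 0 were lower at an adjusted p under 0.05, which is 0.00416% and 0% of the genes (edgeR quasi-likelihood test with Benjamini-Hochberg adjustment). At an unadjusted p under 0.05, 1121 genes (4.66%) were higher and 695 (2.89%) lower, 7.55% in all, where 5% of the genes tested is 1203. In 1713 genes (7.12%) all 3 heterozygous values lay above all 3 wild-type values, and in 1587 (6.59%) all lay below. The log2 fold change was above 0 in 46.9% and below 0 in 53.1% of genes, with a median of -0.03. Members of each gene group are counted at the unadjusted p, and each count is to be read against these shares of all genes. Apart from Trim12a, no gene named here passed the adjusted threshold of this test. Each p given is from this edgeR test unless its sentence names another fit, summed copies or a difference between treated and untreated effects.

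**Figure D1:**
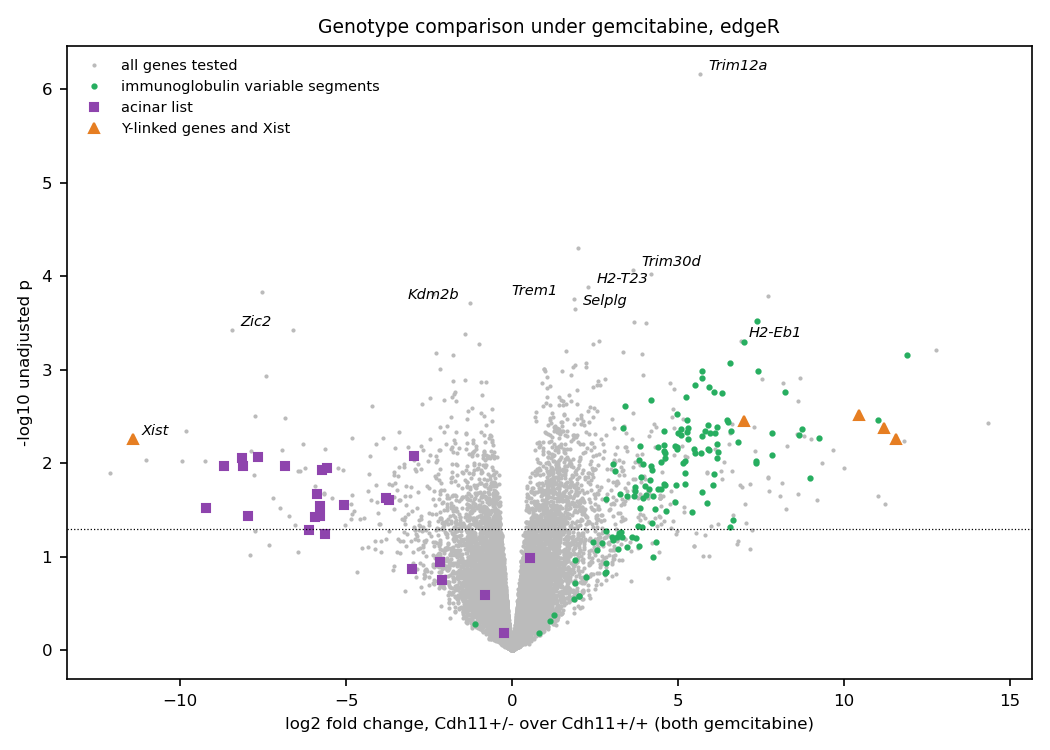
Each dot is a gene tested, with the log2 fold change of Cdh11+/- over Cdh11+/+ tumours, both gemcitabine-treated, on the x axis and -log10 of the unadjusted edgeR p on the y axis. The dotted line marks the unadjusted threshold of 0.05. Trim12a stands alone at the top, immunoglobulin variable segments (134 genes) lie mostly on the right and the acinar list mostly on the left.

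The gene that passed was Trim12a (chr7:104299894-104315466, minus strand), a member of the tripartite motif family, which holds RING-type ubiquitin ligases, several of which restrict retroviruses. Trim12a rose to 8.70, 11.0 and 9.65 CPM in heterozygous tumours, against 0.306, 0.0930 and 0.168 CPM in wild-type tumours. Every heterozygous tumour was far above every wild-type tumour, with a log2 fold change of 5.67 ± 0.57 and an edgeR adjusted p of 0.0167. The call ends, with the fold change still over 4 on the log2 scale, in the limma voom fit (adjusted p = 0.0867), with sex-linked expression as a covariate (0.199), with the replicate number as a block (0.176), and when any mouse other than wild-type mouse 1 is left out (0.0521 to 0.300). In untreated mice the difference was of like size, at 6.15 ± 0.58, and the 2 did not differ beyond their error (difference -0.48 ± 0.72, unadjusted p = 0.516).

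Trim12a lies in a cluster of 10 Trim genes on chromosome 7 with near-identical relatives. Trim30d (chr7:104470014-104507849), the named gene with the next smallest p among those higher in heterozygotes, is in the same cluster and stood at 4.30, 8.36 and 6.00 CPM in heterozygous tumours, against 0.765, 0.209 and 0.527 CPM in wild-type tumours (3.63 ± 0.61, adjusted p = 0.467). Trim5, the mouse gene related to the primate retroviral restriction factor, read 2.28, 2.54 and 5.30 CPM in heterozygous tumours, against 0.131, 0.0930 and 0.575 CPM in wild-type tumours (3.66 ± 0.71, unadjusted p = 0.000309). In both genes the genotype groups did not overlap. Trim30a, an inhibitor of Toll-like receptor signalling in mouse macrophages, was at 14.8, 26.2 and 30.7 CPM in heterozygous tumours and 11.0, 9.16 and 8.75 CPM in wild-type tumours (1.31 ± 0.46, unadjusted p = 0.0162).

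The other 6 genes of the cluster had fold changes of either sign, none with an unadjusted p under 0.05. Trim12c, a near-identical relative of Trim12a, was at 21.4, 18.1 and 26.5 CPM in heterozygous tumours, against 23.5, 22.1 and 45.4 CPM in wild-type tumours, with a log2 fold change of -0.46 ± 0.34. Trim34a, Trim30b and Trim30c had fold changes of 0.40 ± 0.40, 1.07 ± 0.56 and 0.75 ± 0.93, and Trim6 and Trim34b of -0.97 ± 0.46 and -1.12 ± 0.63. When the counts of Trim12a were summed with those of Trim12c and Trim5, whose transcripts match it at 95% identity or more over at least 50% of their length, the sum was 32.4, 31.7 and 41.4 CPM in heterozygous tumours, against 23.9, 22.3 and 46.1 CPM in wild-type tumours, a log2 fold change of 0.19 ± 0.31 (unadjusted p = 0.543). The summed level of the 3 genes showed no difference beyond its error, and how the authors' read assignment divided reads among the copies was not tested. The sum of Trim30a and Trim30d kept a difference, with 19.1, 34.6 and 36.7 CPM in heterozygous tumours, against 11.8, 9.37 and 9.28 CPM in wild-type tumours (1.57 ± 0.45, unadjusted p = 0.00519).

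The start regions of these Trim genes show how alike the copies are and what they share with the class I genes described next. Each line gives 30 bases of the gene strand around a match to GAAA, any 2 bases and GAAA, the core of the interferon-stimulated response element, from the RefSeq promoter table (GRCm38.p6, 250 bases before to 50 after each start); all 7 matches are on the opposite strand, so the capitals read TTTC, 2 bases and TTTC. Trim12a is at chr7:104315466-104315495, Trim5 at chr7:104288136-104288165, Trim12c at chr7:104353359-104353388, Trim30d at chr7:104507871-104507900, Trim30a at chr7:104465210-104465239, H2-T23 at chr17:36032806-36032835 and H2-T22 at chr17:36042914-36042943, and all 7 genes lie on the minus strand.
Trim12a: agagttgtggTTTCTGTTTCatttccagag
Trim5: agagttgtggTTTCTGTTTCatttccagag
Trim12c: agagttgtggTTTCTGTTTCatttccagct
Trim30d: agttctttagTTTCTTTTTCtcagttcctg
Trim30a: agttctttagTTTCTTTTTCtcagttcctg
H2-T23: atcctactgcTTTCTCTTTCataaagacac
H2-T22: attggcttagTTTCACTTTCgaatccccaa
Trim12a and Trim5 have the same 30 bases, and so do Trim30d and Trim30a. Of the 10 Trim genes of the cluster 6 hold the motif on either strand, and of 16 genes of the class I presentation list with an entry 4 do. Of 26 interferon response genes with an entry 18 do, although that list had a median log2 fold change of -0.41, with 0 genes higher and 2 lower at an unadjusted p under 0.05. These counts take a gene if any of its windows holds the motif, whereas the share over all 32851 promoter windows in the table, 3.44%, is by window. Trim12c holds the same letters as Trim12a and Trim5 but overlapped between the genotypes. A match is a description of letters, not of a bound site.

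**Figure D2:**
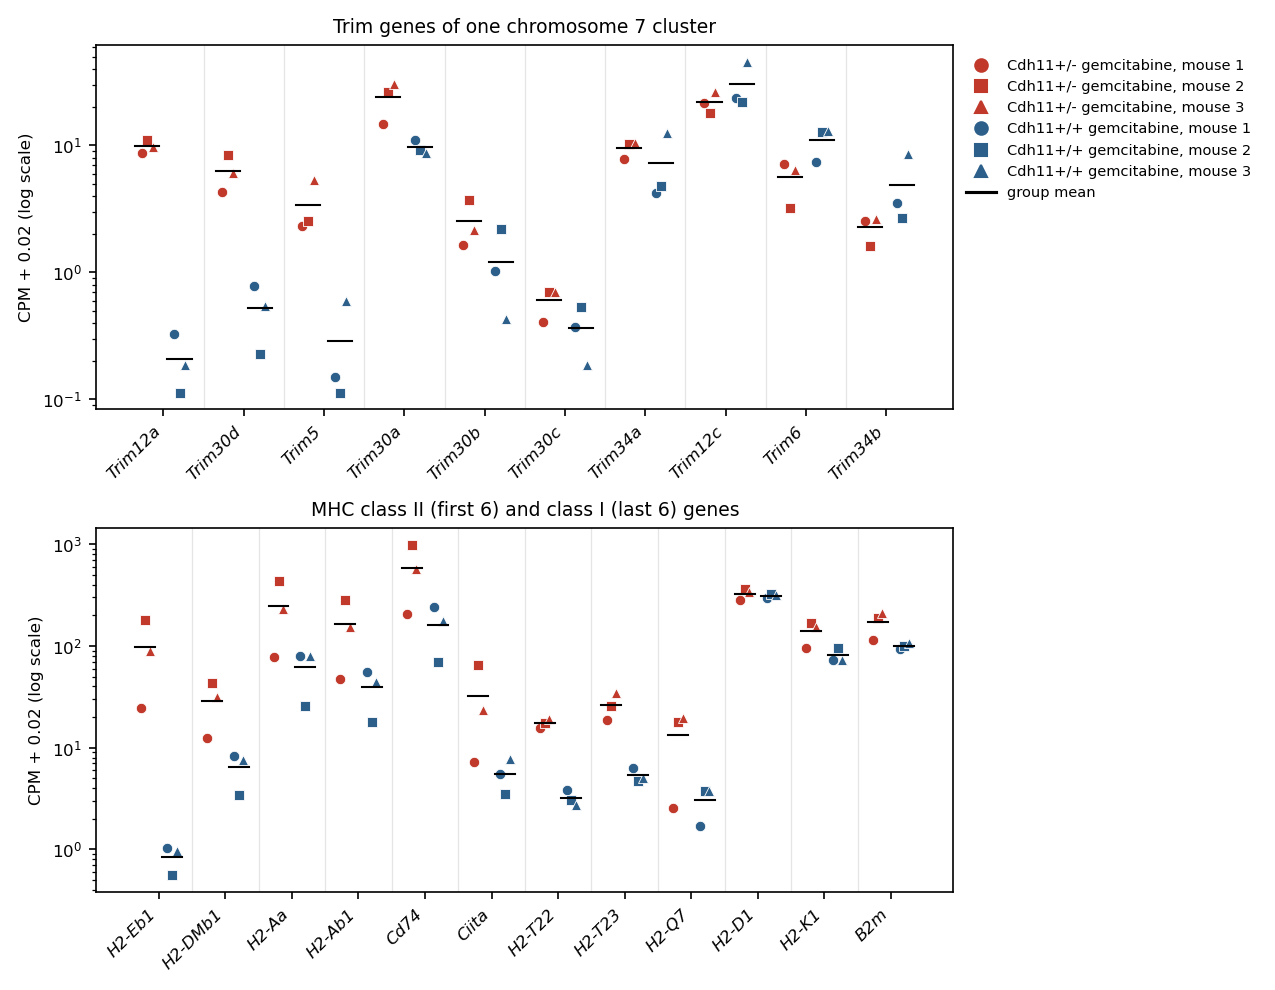
Levels of the chromosome 7 Trim genes (top) and of MHC genes (bottom) in each mouse, as CPM + 0.02 on a log axis; symbols are mice, red Cdh11+/- and blue Cdh11+/+, and black lines are group means. Trim12a, Trim30d, Trim5 and Trim30a separate by genotype while Trim12c overlaps; H2-Eb1, H2-T22 and H2-T23 separate and H2-D1 lies level.

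Class I molecules present peptides to CD8 T cells, and the non-classical ones also to receptors of natural killer cells. The non-classical genes differed among themselves. The fold changes of H2-T23, H2-T22 and H2-Q7 were over 2 on the log2 scale, and those of the classical H2-D1 and H2-K1 under 1. H2-T23 (chr17:36029773-36032855), which encodes Qa-1, the ligand of the inhibitory receptor CD94/NKG2A, stood at 18.6, 25.9 and 34.1 CPM in heterozygous tumours, against 6.32, 4.69 and 5.01 CPM in wild-type tumours (2.30 ± 0.40, adjusted p = 0.467). H2-T22, a ligand of some gamma-delta T cells, was at 15.7, 17.3 and 19.2 CPM in heterozygous tumours, against 3.83, 3.02 and 2.69 CPM in wild-type tumours (2.45 ± 0.63, adjusted p = 0.546). The 3 heterozygotes were close to each other and above all wild types in both genes. With near-identical copies added, the fold changes were 1.71 ± 0.33 for H2-T23 with H2-T-ps and 1.03 ± 0.37 for H2-T22 with H2-T10. The part of the latter sum due to H2-T10, also non-classical, was lower in every heterozygote than in any wild type. For H2-Q7 with H2-Q5 and H2-Q6 the fold change was 1.82 ± 0.79. In untreated mice the fold changes were 2.21 ± 0.40 for H2-T23 and 2.03 ± 0.62 for H2-T22, and the treated effects differed from them by 0.08 ± 0.54 and 0.42 ± 0.85.

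The classical heavy chain H2-D1 was level, at 280.3, 363 and 338 CPM in heterozygous tumours and 297, 326 and 317 CPM in wild-type tumours. H2-K1 was at 95.2, 168 and 154 CPM in heterozygous tumours and 72.7, 96.4 and 73.0 CPM in wild-type tumours (0.78 ± 0.44, unadjusted p = 0.100). B2m, the light chain of every class I molecule, was at 115, 187 and 209 CPM in heterozygous tumours, against 93.3, 99.1 and 107 CPM in wild-type tumours, without overlap but with an unadjusted p of 0.160. Of 18 class I presentation genes all 18 had a fold change above 0, 7 were higher at an unadjusted p under 0.05 and 0 lower. The median was 0.78 in treated mice and 0.52 in untreated mice. The 7 include H2-Q7 (2.12), the peptide transporter subunit Tap2 (0.72), tapasin (Tapbp, 0.58) and the immunoproteasome subunit Psmb8 (1.32). That list does not hold every MHC gene. Of 27 genes with an H2 symbol, class I or II, 22 were above 0 and 5 below, with 10 higher and 1 lower at that p.

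Class II molecules present extracellular peptides to CD4 T cells and are made by dendritic cells, B cells and activated macrophages. H2-Eb1, the E beta chain, stood at 24.7, 179 and 89.6 CPM in heterozygous tumours, against 1.01, 0.534 and 0.935 CPM in wild-type tumours (6.88 ± 1.42, adjusted p = 0.546). H2-Aa, the A alpha chain, read 77.2, 433 and 233 CPM in heterozygous tumours and 80.0, 25.8 and 79.6 CPM in wild-type tumours (2.00 ± 1.04, unadjusted p = 0.0794). Heterozygous mouse 1 matched the wild types for H2-Aa and for H2-Ab1, at 47.5, 286 and 154 CPM in heterozygous tumours, against 55.7, 17.8 and 44.6 CPM in wild-type tumours, whereas for H2-Eb1 it was above them all. Ciita, the master regulator of class II transcription, was at 7.27, 65.4 and 23.4 CPM in heterozygous tumours, against 5.51, 3.46 and 7.65 CPM in wild-type tumours (2.53 ± 1.06, unadjusted p = 0.0364). H2-DMb1, a peptide exchange factor, was at 12.3, 43.6 and 31.3 CPM in heterozygous tumours, against 8.20, 3.44 and 7.53 CPM in wild-type tumours (2.18 ± 0.76). The summed class II list was 728, 2464 and 1716 CPM in heterozygous tumours and 687, 273 and 519 CPM in wild-type tumours. Of its 15 genes, 6 were higher at an unadjusted p under 0.05 and 0 lower, with a median of 2.00, against -0.44 in untreated mice. Without heterozygous mouse 2 the treated median was 1.36.

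Class II promoters share an X box and a Y box that Ciita's partners bind. The 70 bases below run on the gene strand from 100 to 31 bases before the start of 3 class II genes, with ATTGG, the letters of the Y box, in capitals (RefSeq, GRCm38.p6). H2-Eb1 is at chr17:34305767-34305836 and H2-DMb1 at chr17:34153091-34153160, both on the plus strand, and H2-Aa at chr17:34287854-34287923 on the minus strand.
H2-Eb1: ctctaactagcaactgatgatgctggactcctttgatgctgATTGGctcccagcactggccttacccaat
H2-DMb1: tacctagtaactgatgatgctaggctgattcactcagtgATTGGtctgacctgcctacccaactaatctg
H2-Aa: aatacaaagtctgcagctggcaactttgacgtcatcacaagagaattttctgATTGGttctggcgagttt
ATTGG occurs, on either strand of the 300-base window, in 10 of 11 class II list genes with an entry, counting a gene if any of its windows holds it. By window, it occurs in 37.4% of all windows.

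Genes of B cells and antibody-secreting cells were high in heterozygous mice 2 and 3 and low in heterozygous mouse 1 and in every wild type. Igkc, the constant region of kappa light chains, stood at 31.1, 541 and 1390.1 CPM in heterozygous tumours, against 25.2, 37.3 and 4.56 CPM in wild-type tumours (4.87 ± 1.36, unadjusted p = 0.00416). Igha, the IgA heavy chain, was at 59.0, 564 and 851 CPM in heterozygous tumours, against 50.2, 57.2 and 11.4 CPM in wild-type tumours (3.63 ± 0.96, unadjusted p = 0.00288), without overlap. Ighg2c, an IgG heavy chain of the C57BL/6 type, stood at 1.76, 51.2 and 628 CPM in heterozygous tumours and 0.240, 1.19 and 0.240 CPM in wild-type tumours (8.67 ± 2.02, unadjusted p = 0.00123). Heterozygous mouse 1 was above the wild types for IgA and IgG2c but close to them. Jchain, which joins IgA and IgM into polymers, followed the same order of mice, with 9.87, 159 and 281 CPM in heterozygous tumours and 11.7, 10.5 and 2.76 CPM in wild-type tumours.

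Of 19 plasma cell and antibody constant region genes, 12 were higher and 0 lower at an unadjusted p under 0.05 (median 3.63, untreated -0.08). The variable segments, which belong to the same transcripts, went with them: 50 of 66 heavy chain segments (median 4.62, or 4.57 with the segments at 0 in a group set to their lower bound) and 52 of 65 kappa segments (4.58, or 4.48) were higher at that p and 0 were lower. The kappa segments summed to 17.6, 348 and 775 CPM in heterozygous tumours and 13.9, 24.5 and 3.00 CPM in wild-type tumours, and the heavy chain segments to 11.6, 243 and 399 CPM in heterozygous tumours and 7.41, 22.1 and 2.49 CPM in wild-type tumours. Of 115 heavy chain and 100 kappa segments only these 66 and 65 passed the filter on low counts. A segment could pass it through the libraries where it is high, so these counts and medians do not describe all segments. Segments and constant regions of 1 mouse come from the same cells and are not independent.

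The B cell list gave the same picture at lower levels. Ms4a1, which encodes the surface antigen CD20, stood at 0.182, 8.13 and 5.16 CPM in heterozygous tumours, against 0.0874, 0.581 and 0.216 CPM in wild-type tumours (3.92 ± 1.22, unadjusted p = 0.00802). Cd79a, a signalling chain of the B cell receptor, was at 0.444, 6.82 and 5.76 CPM in heterozygous tumours, against 0.153, 0.767 and 0.120 CPM in wild-type tumours (3.64 ± 1.19). Cd37, a tetraspanin of mature B cells and other leukocytes, separated the groups, with 6.50, 14.3 and 10.4 CPM in heterozygous tumours and 4.92, 3.56 and 3.26 CPM in wild-type tumours (1.41 ± 0.35, unadjusted p = 0.00197). Of 19 B cell genes 10 were higher and 0 lower at an unadjusted p under 0.05 (median 2.48, untreated 0.11), and 2 did not overlap between the genotypes. Markers of lymph node stroma and vessels moved with these genes. Glycam1, a ligand of the lymphocyte homing receptor on lymph node vessels, was at 0.0202, 3.84 and 0.983 CPM in heterozygous tumours and 0.0219, 0 and 0 CPM in wild-type tumours. Ccl21a, a chemokine of lymph node stroma, was at 5.15, 23.04 and 31.4 CPM in heterozygous tumours and 2.84, 0.116 and 0.0240 CPM in wild-type tumours. Cr2, a receptor of follicular cells and B cells, was at 0.989, 11.8 and 5.32 CPM in heterozygous tumours and 1.18, 0.860 and 1.20 CPM in wild-type tumours, while Cxcl13 had 1.23, 5.43 and 18.1 CPM in heterozygous tumours and 2.08, 14.8 and 0.336 CPM in wild-type tumours. The list that holds these together with intestinal genes had 6 of 10 genes above 0 and summed to 332, 317 and 282 CPM in heterozygous tumours and 253, 607 and 1007 CPM in wild-type tumours; the part of lymphoid tissue beside the tumours in these results was not tested.

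T cell genes were likewise highest in heterozygous mice 2 and 3. Cd3e, a chain of the T cell receptor complex, was at 0.242, 2.75 and 3.07 CPM in heterozygous tumours, against 0.0874, 0.0465 and 0.0719 CPM in wild-type tumours (4.82 ± 1.29, unadjusted p = 0.00319). Cd28, the main costimulatory receptor, stood at 0.606, 3.63 and 4.67 CPM in heterozygous tumours, against 0.262, 0.256 and 0.360 CPM in wild-type tumours (3.33 ± 0.71, unadjusted p = 0.000651). In both, all 3 heterozygotes were above all wild types, with mouse 1 the lowest of the 3. Cd4 read 0.222, 6.10 and 6.90 CPM in heterozygous tumours and 0.481, 0.325 and 0.360 CPM in wild-type tumours, and Cd8a 0.323, 3.84 and 1.85 CPM in heterozygous tumours and 0.809, 0.325 and 0.456 CPM in wild-type tumours. For Cd4 and Cd8a heterozygous mouse 1 was above no wild type. Of 24 T cell genes 15 were higher and 0 lower at an unadjusted p under 0.05, with a median of 2.49 and 10 that did not overlap; in untreated mice the median was 0.35. A term for sex-linked expression, estimated from the untreated libraries alone, changed these medians. With it they were 1.47 for T cells, 0.97 for B cells, 1.29 for plasma cells, 0.32 for class II and 0.10 for class I. When any 1 mouse was left out, the medians stayed between 2.06 and 3.00 for T cells and between 2.97 and 4.35 for plasma cells; for B cells they stayed between 2.43 and 2.98, except without heterozygous mouse 2, where the median was 1.55.

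Fewer genes of effector and regulatory lymphocytes passed the unadjusted threshold. Prf1, the pore-forming protein of killer cells, was at 0.141, 0.978 and 0.843 CPM in heterozygous tumours, against 0.131, 0.116 and 0.144 CPM in wild-type tumours (2.30 ± 1.00), and 2 of 13 cytotoxic genes were higher at an unadjusted p under 0.05, among them Klrb1c (3.80), the antigen NK1.1. In the regulatory and checkpoint list 6 of 19 were higher and 0 lower. Pdcd1, which encodes PD-1, stood at 0.323, 0.722 and 0.983 CPM in heterozygous tumours and 0.219, 0.116 and 0.0719 CPM in wild-type tumours (2.29 ± 0.77, unadjusted p = 0.0126). Icos, a costimulator of activated T cells, had a fold change of 4.31 ± 1.30, and Vsir, which encodes the checkpoint ligand VISTA, was at 93.3, 97.0 and 112 CPM in heterozygous tumours, against 67.5, 38.8 and 43.6 CPM in wild-type tumours (1.01 ± 0.33). Foxp3, the factor that defines regulatory T cells, overlapped, with 1.88, 3.45 and 2.93 CPM in heterozygous tumours and 1.88, 1.44 and 2.09 CPM in wild-type tumours (0.61 ± 0.42).

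**Figure D3:**
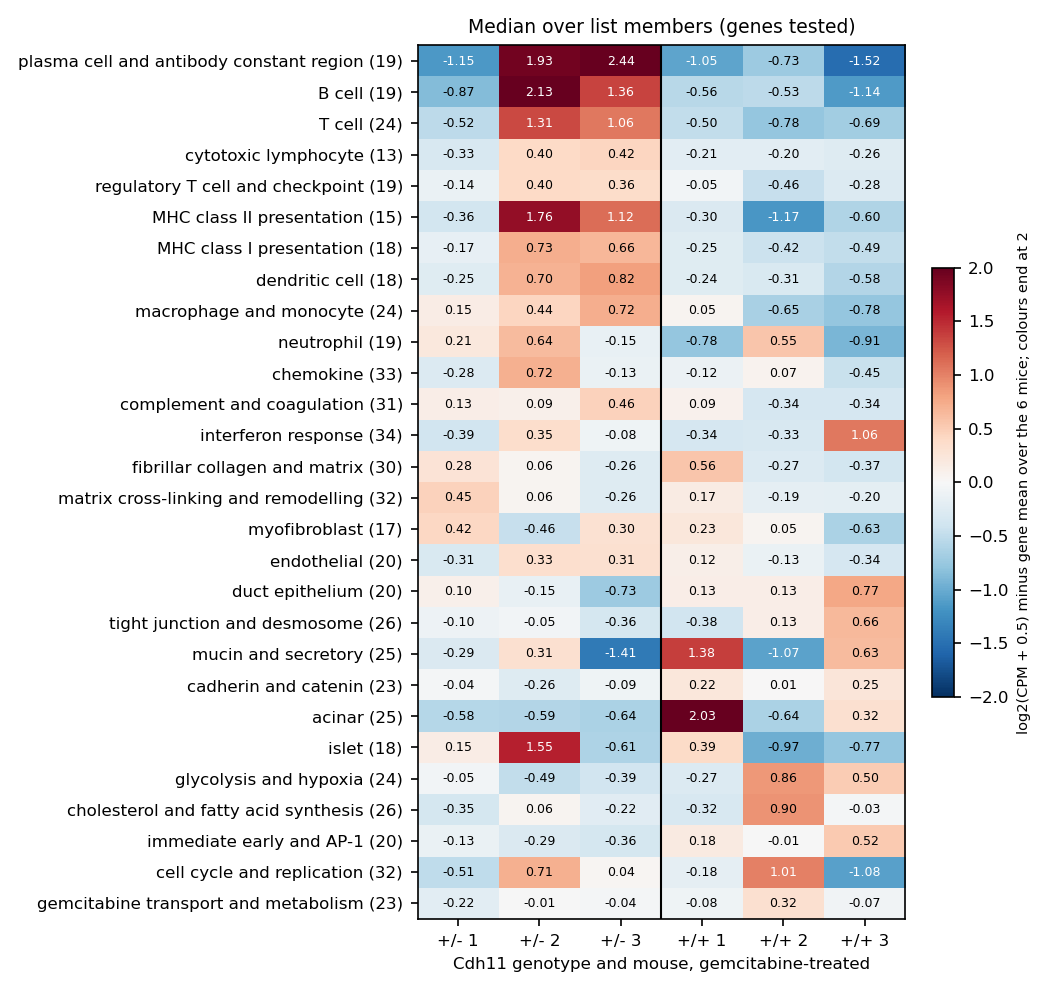
Median over the members of each gene list of log2(CPM + 0.5) centred on each gene's mean over the 6 treated mice, with the number of genes tested in brackets; columns are mice, Cdh11+/- left of the line and Cdh11+/+ right of it. Lymphocyte, antibody and class II lists are high in heterozygous mice 2 and 3 and low in heterozygous mouse 1, the acinar list is high in wild-type mouse 1, and the interferon list in wild-type mouse 3.

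Among myeloid cells, the genes with the smallest p were Trem1 and Selplg. Trem1 (chr17:48232768-48246924), an activating receptor of neutrophils and monocytes, stood at 27.6, 20.5 and 21.6 CPM in heterozygous tumours, against 4.96, 7.97 and 6.21 CPM in wild-type tumours (1.87 ± 0.34, adjusted p = 0.467). Selplg (chr5:113818536-113832644), the leukocyte ligand of P-selectin, was at 24.7, 25.8 and 39.3 CPM in heterozygous tumours, against 10.8, 6.76 and 6.69 CPM in wild-type tumours (1.89 ± 0.35, adjusted p = 0.496). Unlike the lymphocyte genes, both were high in heterozygous mouse 1 too. Their genotype effects had the other sign in untreated mice, at -0.90 ± 0.33 for Trem1 and -0.75 ± 0.35 for Selplg, and the differences between treated and untreated effects were 2.76 ± 0.47 (unadjusted p = 0.000104, adjusted 0.252) and 2.63 ± 0.49 (unadjusted p = 0.000220, adjusted 0.252).

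Macrophage genes were mostly above 0. Adgre1, which encodes F4/80, was at 22.3, 53.3 and 52.9 CPM in heterozygous tumours, against 21.9, 16.9 and 11.9 CPM in wild-type tumours (1.34 ± 0.54). Csf1r, the receptor that macrophages need to survive, was at 152, 238 and 234 CPM in heterozygous tumours, against 135, 75.7 and 80.1 CPM in wild-type tumours (1.10 ± 0.45). Fcgr3, a low-affinity IgG receptor, was at 149.8, 111 and 137 CPM in heterozygous tumours, against 86.3, 62.0 and 88.4 CPM in wild-type tumours (0.75 ± 0.24, unadjusted p = 0.00891). None of the 3 overlapped. In the macrophage list 23 of 24 genes were above 0, 5 higher and 0 lower at an unadjusted p under 0.05, and 11 did not overlap in the higher direction; the median was 0.88, or 0.38 with the sex-linked term, against -0.89 in untreated mice. Markers of alternative activation passed no threshold: Mrc1 read 531, 249.5 and 768 CPM in heterozygous tumours and 434, 173 and 237 CPM in wild-type tumours, and Arg1 281, 128 and 262 CPM in heterozygous tumours and 145, 161 and 172 CPM in wild-type tumours. Of 6 Fc receptor genes 5 were higher at that p, of 18 chemokine receptors 8, among them Cxcr4 (0.91), and of 12 Toll-like receptors 3, Tlr8 (1.51), Tlr2 (1.11) and Tlr5 (1.23); 0 were lower in any of these families.

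Dendritic cell genes had 6 of 18 higher and 0 lower at an unadjusted p under 0.05 (median 1.08, or 0.30 with the sex-linked term, untreated -0.86). Wdfy4, needed for cross-presentation, stood at 45.5, 70.0 and 87.1 CPM in heterozygous tumours, against 21.4, 13.9 and 16.6 CPM in wild-type tumours (1.96 ± 0.50, unadjusted p = 0.00234). Cd86, a costimulatory ligand, was at 5.19, 10.9 and 7.10 CPM in heterozygous tumours, against 2.54, 2.09 and 2.90 CPM in wild-type tumours (1.62 ± 0.42, unadjusted p = 0.00233). The genotypes did not overlap in either gene. Xcr1, a marker of cross-presenting dendritic cells, overlapped, at 0.222, 0.792 and 0.582 CPM in heterozygous tumours and 0.262, 0.302 and 0.264 CPM in wild-type tumours. In the neutrophil list 5 of 19 genes were higher and 0 lower (median 1.02, untreated -1.51). The treated median was 0.37 without heterozygous mouse 2 and 1.85 without wild-type mouse 2. Lcn2, an iron-binding protein that epithelium also makes, was at 215, 356 and 75.7 CPM in heterozygous tumours, against 83.2, 36.6 and 48.6 CPM in wild-type tumours (1.94 ± 0.47), whereas S100a8, a main neutrophil protein, overlapped at 9.51, 16.7 and 6.80 CPM in heterozygous tumours and 5.12, 9.64 and 4.24 CPM in wild-type tumours (0.79 ± 0.51). In the smaller mast cell and eosinophil list Siglecf, an eosinophil lectin, was at 2.20, 16.1 and 11.1 CPM in heterozygous tumours and 2.10, 0.232 and 1.08 CPM in wild-type tumours (3.10 ± 0.96). Il5ra, the receptor of the eosinophil cytokine interleukin 5, was at 1.07, 5.17 and 1.73 CPM in heterozygous tumours and 6.08, 27.3 and 17.7 CPM in wild-type tumours (-2.68 ± 1.21).

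Soluble immune mediators were mixed. Cxcl14, a chemokine of epithelium and fibroblasts, stood at 161, 164 and 91.1 CPM in heterozygous tumours, against 22.2, 33.4 and 90.2 CPM in wild-type tumours (1.51 ± 0.50), and 3 of 33 chemokines were higher and 1 lower at an unadjusted p under 0.05. Complement components had 4 of 31 higher and 1 lower (median 0.63, untreated -0.87). With the sex-linked term the chemokine median was -0.30 against 0.53 without it, and the complement median -0.05. Leaving out heterozygous mouse 2 alone turned the chemokine median to -0.06. C3, the central component of complement, was at 937, 1410.0 and 878 CPM in heterozygous tumours, against 596, 423 and 227 CPM in wild-type tumours (1.37 ± 0.60, unadjusted p = 0.0430). All heterozygotes were above all wild types, and with the sex-linked term the fold change of C3 turned to -0.28. Areg and Ereg, ligands of the epidermal growth factor receptor, were lower, with 2.91, 5.29 and 7.16 CPM of Areg in heterozygous tumours, against 10.3, 34.8 and 39.8 CPM in wild-type tumours (-2.47 ± 0.61, unadjusted p = 0.00199), and a fold change of -1.78 ± 0.71 for Ereg. Ptgs2, the inducible cyclooxygenase, stood at 31.2, 18.3 and 14.4 CPM in heterozygous tumours and 34.5, 90.5 and 80.7 CPM in wild-type tumours (-1.68 ± 0.73).

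Interferon-induced genes were mixed. In the interferon response list, of 34 interferon-induced genes 11 were above 0, 0 were higher and 2 lower at an unadjusted p under 0.05, and the median was -0.41, against 1.43 in untreated mice. Usp18, an enzyme that removes ISG15 from proteins, stood at 1.09, 2.86 and 3.83 CPM in heterozygous tumours and 1.68, 2.14 and 50.8 CPM in wild-type tumours (-2.81 ± 1.25). Cxcl10, an attractant of T cells, was at 0.707, 1.19 and 0.682 CPM in heterozygous tumours and 2.25, 0.442 and 20.04 CPM in wild-type tumours. Wild-type mouse 3 alone was high in both. Without it the fold change of Usp18 turned to 0.44 and the median of the list to 0.27; with the sex-linked term that median was -1.10. Irf7, the factor that amplifies the response, was at 7.45, 11.9 and 7.02 CPM in heterozygous tumours and 6.43, 10.3 and 68.9 CPM in wild-type tumours, again with only wild-type mouse 3 apart. A set taken by symbol, the Gbp, Irgm, Irgb, Igtp and Iigp genes, which encode interferon-induced GTPases, and the numbered Ifi genes, had the other sign: 27 of 33 were above 0 and the median was 0.80, against 0.33 in untreated mice. It shares 7 genes with the list. Its genotypes did not overlap in 8 genes that were higher and 1 that was lower, and 2 were higher and 1 lower at an unadjusted p under 0.05. With the sex-linked term its median was -0.47.

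Among fibroblast and matrix genes, to which Cdh11 belongs, the share past the unadjusted threshold differed by list. Of 20 inflammatory fibroblast genes 2 were higher (Cxcl14 and C3) and 1 lower (Ptgs2), all given above. That is 15% against 7.55% of all genes, with 10 genes above 0, 10 below and a median of -0.01. In the collagen and matrix list the share was 3.33%. Col1a1 had a fold change of -0.85 ± 0.53 (unadjusted p = 0.137). Col3a1, which forms mixed fibrils with it, stood at 2679, 2206 and 1749 CPM in heterozygous tumours, against 5058, 2487 and 1967 CPM in wild-type tumours (-0.52 ± 0.36). The collagen and matrix list summed to 32038, 21127 and 20371 CPM in heterozygous tumours and 36648, 19033 and 17999 CPM in wild-type tumours, with the first mouse of each group the highest. Of its 30 genes 1 was higher and 0 lower at an unadjusted p under 0.05, and the median was 0.13, with a range of -0.09 to 0.44 over the alternatives, against -1.13 in untreated mice. That gene was Thbs1, thrombospondin 1, an activator of TGF-beta, at 2538, 1352 and 1488 CPM in heterozygous tumours and 1021, 889 and 736 CPM in wild-type tumours (1.02 ± 0.39, unadjusted p = 0.0243).

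Matrix remodelling held 3 metalloproteinases of 1 chromosome 9 cluster. Mmp3, or stromelysin 1, was at 41.5, 11.6 and 7.91 CPM in heterozygous tumours, against 7.06, 2.09 and 2.18 CPM in wild-type tumours (2.43 ± 0.81, unadjusted p = 0.0117). Mmp7, or matrilysin, was at 276, 221 and 48.4 CPM in heterozygous tumours, against 52.7, 7.88 and 46.5 CPM in wild-type tumours (2.35 ± 0.83). Mmp13, a collagenase, was at 102, 23.01 and 2.87 CPM in heterozygous tumours, against 8.48, 4.76 and 3.19 CPM in wild-type tumours (2.95 ± 1.20). Heterozygous mouse 1 was the highest of the 6 in each, and heterozygous mouse 3 lay near the wild types for Mmp7 and Mmp13. In untreated mice Mmp13 went the other way, at -5.09 ± 1.32, and the difference of effects was 8.04 ± 1.78 (unadjusted p = 0.000844, adjusted 0.252). These were the 3 of 32 remodelling genes that were higher, and 0 were lower; the median was 0.14, against -1.01 untreated.

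Few contractile and vascular genes passed the unadjusted threshold. Acta2, the smooth muscle actin of myofibroblasts, stood at 224, 126 and 148 CPM in heterozygous tumours and 201, 153 and 93.5 CPM in wild-type tumours, and of 17 myofibroblast genes 0 were higher and 0 lower at an unadjusted p under 0.05. The basement membrane list had 0 higher and 0 lower of 21, and the pericyte list 0 and 0 of 12. In the stellate cell list 1 of 12 genes was higher and 1 lower at that p. Hgf, a growth factor for epithelium, was at 7.65, 11.1 and 7.66 CPM in heterozygous tumours and 7.11, 3.16 and 3.33 CPM in wild-type tumours (0.95 ± 0.39, unadjusted p = 0.0316). Pparg was lower, at 11.1, 16.1 and 26.6 CPM in heterozygous tumours and 31.0, 44.0 and 34.6 CPM in wild-type tumours (-1.03 ± 0.38, unadjusted p = 0.0210). Of 26 TGF-beta and BMP genes 18 were below 0 (median -0.12), with 2 higher and 1 lower at that p. Ltbp2, a matrix protein of the latent TGF-beta binding family, had 537, 644 and 259 CPM in heterozygous tumours and 292, 159.6 and 189 CPM in wild-type tumours (1.17 ± 0.34). Tgfbi, a secreted protein that TGF-beta induces, had 131, 193 and 174 CPM in heterozygous tumours and 124, 58.4 and 56.4 CPM in wild-type tumours (1.06 ± 0.38). The lower one was Smad6 (-1.07 ± 0.48), without overlap. Of 20 endothelial genes the 1 that was higher was Flt4, the lymphatic receptor of VEGF-C, at 81.2, 36.9 and 99.4 CPM in heterozygous tumours and 32.7, 32.7 and 31.2 CPM in wild-type tumours (1.17 ± 0.38).

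Several epithelial adhesion genes were lower in heterozygotes at the unadjusted p. Cdh1, which encodes the epithelial cadherin, was at 456, 379 and 427 CPM in heterozygous tumours, against 651, 738 and 1056 CPM in wild-type tumours (-0.96 ± 0.25, unadjusted p = 0.00289). Krt19, a duct keratin, stood at 381, 378 and 182 CPM in heterozygous tumours, against 417, 583 and 1060.0 CPM in wild-type tumours (-1.13 ± 0.42). Gata6, a factor of the classical tumour subtype, was at 22.1, 10.1 and 14.3 CPM in heterozygous tumours, against 44.9, 26.3 and 42.4 CPM in wild-type tumours (-1.29 ± 0.43). In these 3 genes every heterozygote was below every wild type. Epcam, the other common epithelial marker, was level, with 289.8, 265 and 308 CPM in heterozygous tumours and 221, 311 and 309.6 CPM in wild-type tumours. Of 20 duct genes 18 were below 0, 4 lower and 0 higher at an unadjusted p under 0.05 (median -0.57, untreated 0.20); of 26 junction genes 4 were lower and 0 higher, among them Dsg2 (-0.91 ± 0.34), a desmosomal cadherin.

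The cadherin and catenin list had 4 genes lower and 1 higher of 23 at that p. Beside Cdh1 the lower ones were Cdh6, a cadherin of embryonic and mesenchymal tissues, at 38.3, 12.9 and 13.5 CPM in heterozygous tumours and 62.5, 52.9 and 41.6 CPM in wild-type tumours (-1.28 ± 0.53), and the intestinal brush border protocadherins Cdhr2 (-3.24 ± 1.43) and Cdhr5 (-4.32 ± 1.46). The higher one was Cdhr1, a photoreceptor protocadherin (2.09 ± 0.77). Cdh2, the neural cadherin, overlapped at 31.2, 8.18 and 47.9 CPM in heterozygous tumours and 49.9, 17.3 and 41.6 CPM in wild-type tumours, and so did Ctnnb1, which encodes beta-catenin, at 971, 1058 and 1129 CPM in heterozygous tumours and 869, 1397 and 1124 CPM in wild-type tumours. Secretory genes varied in how far they depended on 1 mouse. Muc2, a gel-forming mucin, was at 5.33, 2.19 and 1.26 CPM in heterozygous tumours and 159, 4.44 and 7.17 CPM in wild-type tumours, with wild-type mouse 1 far above the rest. Anxa10 did not overlap, at 14.9, 29.9 and 3.85 CPM in heterozygous tumours and 87.7, 55.4 and 45.1 CPM in wild-type tumours (-1.95 ± 0.77). Of 25 mucin and secretory genes 4 were lower and 1 higher at that p. The median was -0.73, with a range of -1.82 to -0.58 over the alternatives. Ivl, a squamous envelope protein, separated the groups with 21.3, 40.3 and 13.7 CPM in heterozygous tumours, against 62.0, 84.7 and 114 CPM in wild-type tumours (-1.79 ± 0.39, unadjusted p = 0.000689). Dsc3, a squamous desmosomal cadherin, was at 0.121, 4.19 and 4.59 CPM in heterozygous tumours and 0.175, 0.0232 and 0.0959 CPM in wild-type tumours (4.87 ± 1.18), high in heterozygous mice 2 and 3 only.

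Acinar genes, the digestive enzymes of normal exocrine pancreas, marked 1 tumour. The list summed to 11.6, 13.4 and 10.4 CPM in heterozygous tumours and 340.2, 9.18 and 45.3 CPM in wild-type tumours. Ctrb1, or chymotrypsinogen B, was at 0.121, 0.466 and 0 CPM in heterozygous tumours and 106, 0.0232 and 9.69 CPM in wild-type tumours. Wild-type mouse 1 and, less so, wild-type mouse 3 carried these RNAs, and wild-type mouse 2 was as low as the heterozygotes. Of 25 genes 17 were lower at an unadjusted p under 0.05, but only 2 did not overlap; the fitted median of -5.72, or -3.82 with the 6 genes at 0 in a group set to their lower bound, was -2.50 without wild-type mouse 1. Pnlip, pancreatic lipase, was at 0 in every heterozygote and in wild-type mouse 2. Islet genes were highest in heterozygous mouse 2, with list sums of 39.4, 133 and 29.1 CPM in heterozygous tumours and 62.9, 35.5 and 25.9 CPM in wild-type tumours. Alb, the defining liver marker, was at 0.242, 0.233 and 0.120 CPM in heterozygous tumours and 1.05, 0.0465 and 0 CPM in wild-type tumours.

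Predicted genes, RIKEN and LOC-type names, pseudogenes and variable segments were left out when genes were ranked by p in each direction. The 5 remaining genes with the smallest p in the lower direction belong to no single group. Kdm2b (chr5:122870665-122989823), a histone demethylase that recruits Polycomb complexes, was at 22.3, 25.2 and 23.9 CPM in heterozygous tumours, against 65.7, 63.3 and 44.7 CPM in wild-type tumours (-1.28 ± 0.24, adjusted p = 0.468). Zic2 (chr14:122475435-122479852), a zinc finger factor of early development, was at 0, 0 and 0.100 CPM in heterozygous tumours, which is 5 counts in mouse 3, against 5.77, 13.6 and 19.5 CPM in wild-type tumours (-8.44 ± 1.68, adjusted p = 0.546). Both separated the groups, Zic2 nearly as presence against absence. Paqr8, a membrane progesterone receptor, stood at 20.1, 27.1 and 17.98 CPM in heterozygous tumours, against 56.4, 46.0 and 73.4 CPM in wild-type tumours (-1.43 ± 0.29). Prag1, a pseudokinase encoded on chromosome 8, was at 59.4, 59.0 and 44.5 CPM in heterozygous tumours, against 111, 104 and 109 CPM in wild-type tumours (-0.99 ± 0.21). Mogat2, an enzyme of fat absorption, read 1.53, 0.745 and 0.682 CPM in heterozygous tumours, against 5.51, 3.23 and 5.71 CPM in wild-type tumours (-2.28 ± 0.49). In all 5 genes the adjusted p lay between 0.468 and 0.546.

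**Figure D4:**
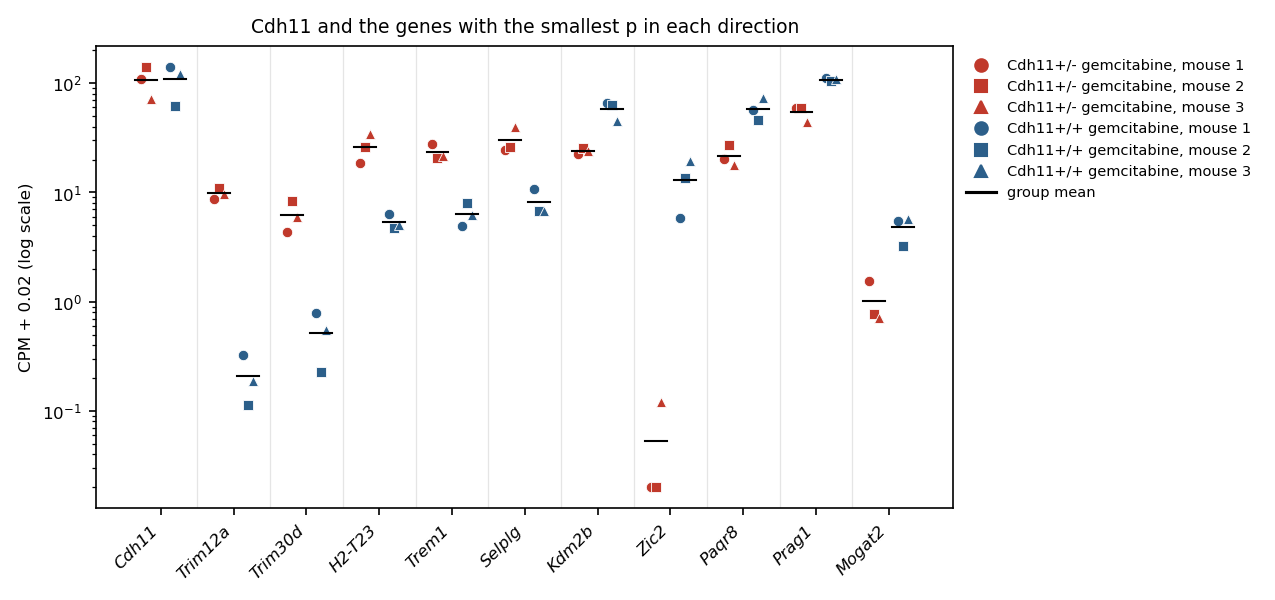
CPM + 0.02 on a log axis in each gemcitabine-treated mouse for Cdh11 and for the 5 genes with the smallest p in each direction. Predicted genes, RIKEN and LOC-type names, pseudogenes and variable segments were left out of that ranking. The first 5 are higher in Cdh11+/- tumours and the last 5 lower. Red is Cdh11+/-, blue Cdh11+/+, and black lines are group means. Cdh11 overlaps between the genotypes and the other 10 genes do not; the Zic2 points at the bottom are 2 tumours at 0.

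The glycolysis and hypoxia, cholesterol and fatty acid, and immediate early lists had medians under 0. The share of their genes past the unadjusted threshold was 4.17%, 15.4% and 20%, in that order, against 7.55% of all genes. Car9, a carbonic anhydrase that hypoxia induces, stood at 19.8, 11.6 and 9.83 CPM in heterozygous tumours, against 44.9, 51.6 and 39.2 CPM in wild-type tumours (-1.72 ± 0.42, unadjusted p = 0.00174), 1 of 24 glycolysis and hypoxia genes to pass that threshold, although 22 of them were below 0 (median -0.69, untreated -0.02). Pkm, the last enzyme of glycolysis, was at 901, 868 and 980.3 CPM in heterozygous tumours, against 1450.0, 1726 and 1163 CPM in wild-type tumours (-0.66 ± 0.34, unadjusted p = 0.0809). In both genes every heterozygote was below every wild type. Of 26 cholesterol and fatty acid genes 3 were lower and 1 higher at an unadjusted p under 0.05. Among immediate early genes, Ier2 was at 18.9, 19.96 and 17.3 CPM in heterozygous tumours, against 36.9, 32.5 and 38.7 CPM in wild-type tumours (-0.94 ± 0.22, unadjusted p = 0.00136). Junb, a subunit of AP-1, was at 151, 133 and 136 CPM in heterozygous tumours, against 185, 252 and 334 CPM in wild-type tumours (-0.88 ± 0.36), both on chromosome 8; 3 of 20 were lower and 1 higher.

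Most genes that handle gemcitabine overlapped between the genotypes. Dck, which activates the drug, stood at 7.51, 17.0 and 14.1 CPM in heterozygous tumours and 11.7, 15.1 and 9.01 CPM in wild-type tumours. Rrm1, the large subunit of the ribonucleotide reductase that the drug inhibits, was at 61.2, 95.7 and 66.2 CPM in heterozygous tumours and 79.2, 93.5 and 49.99 CPM in wild-type tumours. The equilibrative transporter Slc29a1 was at 51.0, 48.1 and 64.8 CPM in heterozygous tumours and 40.4, 78.7 and 25.1 CPM in wild-type tumours. Cda, which inactivates the drug, was at 9.37, 10.1 and 7.08 CPM in heterozygous tumours and 5.03, 7.39 and 4.80 CPM in wild-type tumours. All 4 genes overlapped between the genotypes. The concentrative transporters had fold changes of opposite sign, with Slc28a2 at 0.928, 3.05 and 3.29 CPM in heterozygous tumours, against 23.3, 3.51 and 6.26 CPM in wild-type tumours (-2.18 ± 0.67). Slc28a3 was at 59.2, 33.2 and 3.61 CPM in heterozygous tumours, against 9.16, 8.65 and 5.39 CPM in wild-type tumours (2.05 ± 0.80). Of 23 genes 2 were higher and 2 lower at an unadjusted p under 0.05. The other higher one was Samhd1, a hydrolase of nucleoside triphosphates, at 68.9, 84.6 and 102 CPM in heterozygous tumours and 64.4, 53.5 and 47.6 CPM in wild-type tumours, and the other lower one Nt5c2, a nucleotidase, at 67.5, 70.6 and 58.3 CPM in heterozygous tumours and 107, 91.1 and 119 CPM in wild-type tumours. In the cell cycle list (32 genes) and the DNA damage list (22 genes) 0 were higher and 0 lower in each, and of 23 p53 targets 2 were higher and 2 lower, among the lower ones Gdf15, a stress cytokine, at 0.505, 0.210 and 0.140 CPM in heterozygous tumours and 4.55, 1.95 and 1.08 CPM in wild-type tumours (-3.13 ± 0.94).

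X-linked genes that escape inactivation went with Xist. Eif2s3x, a translation initiation factor gene, was at 110.2, 131 and 109 CPM in heterozygous tumours, against 177, 235 and 177 CPM in wild-type tumours (-0.75 ± 0.29). In the list of X inactivation and escape genes, which counts Xist itself, 4 of 9 were lower at an unadjusted p under 0.05, with 7 that did not overlap. Imprinted genes of fetal growth had 6 lower and 1 higher of 16, with a median of -0.92 that was -0.21 without wild-type mouse 1. Meg3, a maternally expressed noncoding RNA, stood at 50.3, 58.1 and 18.9 CPM in heterozygous tumours and 276, 96.0 and 43.5 CPM in wild-type tumours (-1.71 ± 0.75), highest in wild-type mouse 1, the tumour that also held the acinar RNA.

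Some chromosome medians differed between the genotypes by small amounts. For each mouse, the median log2 level of the protein-coding genes of a chromosome with a mean of at least 1 CPM, each gene on the log2(CPM + 0.5) scale and relative to its mean over the 12 libraries, was set against the median of the autosomes. Chromosome 8, which carries Cdh11, was at -0.05, -0.11 and -0.12 in heterozygous tumours, against 0.16, 0.16 and 0.04 in wild-type tumours, a difference of -0.21 over 744 genes. Chromosome 16 was at 0.09, 0.04 and -0.01 in heterozygous tumours, against -0.15, -0.10 and -0.16 in wild-type tumours, a difference of 0.18 over 429 genes. Neither overlapped between the genotypes, and leaving out any 1 mouse left the difference between -0.25 and -0.19 for chromosome 8 and between 0.15 and 0.21 for chromosome 16. Chromosomes 4 and 18 were also higher and chromosome 19 lower without overlap, 5 of 20 chromosomes in all, against 1 of 20, the X chromosome, between the untreated genotypes. Chromosome 12 had a difference of -0.20, with overlap. Single untreated tumours lay about as far out on chromosome 8, in the other order, with wild-type mouse 2 at -0.20 and heterozygous mouse 3 at 0.14.

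Gene counts show the same shift. On chromosome 8, 240 of 1260 genes tested were lower in every heterozygote and 45 higher, and on chromosome 16, 85 of 653 were higher and 5 lower, where 6.59% of all genes were lower and 7.12% higher without overlap. When chromosome 8 was cut into 4 parts of 186 genes each, the medians of the 3 parts beyond the first did not overlap between genotypes. In the first, heterozygous mouse 1 was at 0.07 and wild-type mouse 3 at 0.00. The part that holds Cdh11 was at -0.08, -0.10 and -0.10 in heterozygous tumours, against 0.18, 0.16 and 0.00 in wild-type tumours. Genes along 1 chromosome are not independent, no DNA data were used, and copy number in these tumours was not tested.

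**Figure D5:**
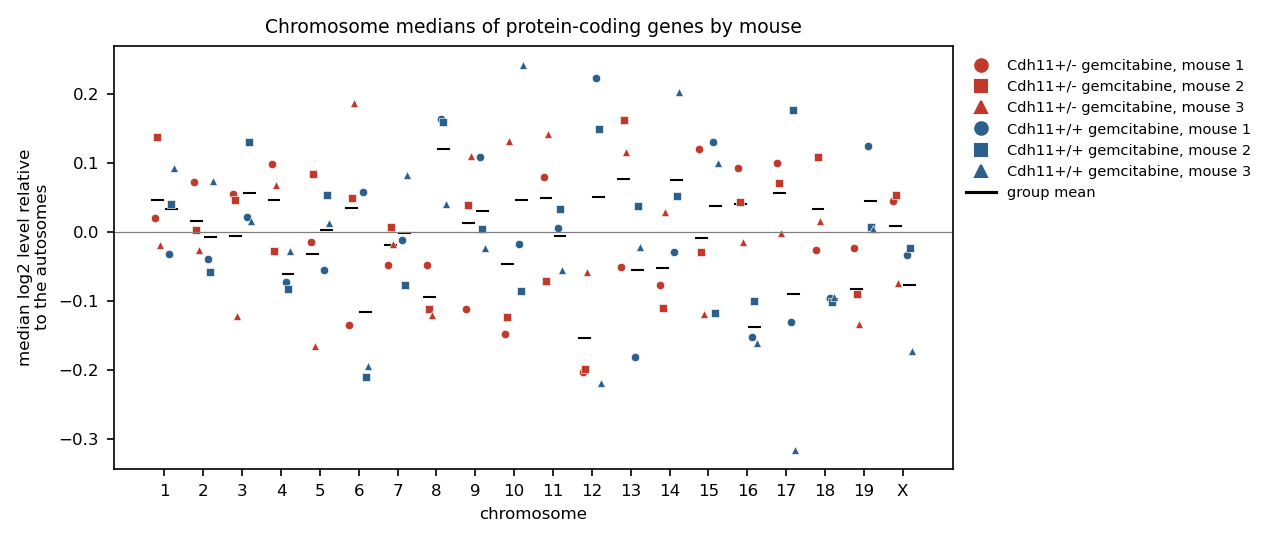
Median log2 level of the protein-coding genes of each chromosome relative to the autosomes, 1 symbol per gemcitabine-treated mouse, with Cdh11+/- (red) left of Cdh11+/+ (blue) and black lines for group means. The 3 heterozygotes lie below the 3 wild types on chromosomes 8 and 19 and above them on chromosomes 4, 16 and 18.

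The genotype effect under gemcitabine and that in untreated mice come from different libraries, and several list medians had opposite signs in the 2. The median was 0.88 in treated and -0.89 in untreated mice for macrophage genes, 0.63 and -0.87 for complement and 0.13 and -1.13 for the matrix list. These differences of medians were not tested. Among the named genes, Zeb2, a repressor of epithelial genes, was at 176, 174 and 223 CPM in treated heterozygous tumours, against 145, 97.2 and 95.6 CPM in treated wild-type tumours (0.76 ± 0.26), and its untreated effect was -1.13 ± 0.26, a difference of 1.89 ± 0.37 (unadjusted p = 0.000288, adjusted 0.252). Car9 had the opposite pattern, with an untreated effect of 1.32 ± 0.41 and a difference of -3.03 ± 0.59 (unadjusted p = 0.000308, adjusted 0.252). Over all genes 3046 had an unadjusted p under 0.05 for this difference and 2 an adjusted p under 0.05.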

How the data were processed

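Per the labels, total RNA of frozen tumours was depleted of ribosomal RNA and made into stranded libraries. The deposited values are expected counts by gene, whole numbers; the submitters' processing notes name RSEM and GRCm38. The annotation, filters and software versions were not given in the sources used here. Estimated counts divide reads among near-identical genes, so those of copies are uncertain. Libraries held 39388328 to 56559413 counts. All 12 libraries entered 1 edgeR 4.0.16 quasi-likelihood fit (TMM, 1 mean per group, 8 residual degrees of freedom, biological variation 46.4%) over the 24065 genes that passed the tool's filter on low counts, with Benjamini-Hochberg adjustment. Alternatives were other scalings and filters, DESeq2 1.42.0, limma 3.58.1, the treated libraries alone, covariates, a replicate block and leaving out each mouse. In simulated counts for this contrast (23514 genes, 50 per fold) the test recovered 6% of genes changed 2-fold and 60% at 4-fold. It recovered 86% at 8-fold and 92% at 16-fold, with 4 false calls of 126. The changed genes were drawn from those with a mean over 1 CPM, and genes were simulated independently. These rates need not hold for scarcer genes or for genes that vary together by mouse. A gene at 0 in a group was set to 3 counts per library for lower bounds. Copies were found with blastn 2.17.0 among transcripts. Levels compare a gene between mice, not genes with each other, and the same numbers in different groups do not pair mice. The genes named were Cdh11, up to 15 per direction at an adjusted p under 0.05 (or the 5 with the smallest p), 3 per list with the smallest p, Xist and the Y-linked genes. The choice per direction left out predicted genes, RIKEN and LOC-type names, pseudogenes and variable segments. Other members were named for their roles after their values were seen. Members and lists were chosen with earlier results of these data known. Some items are not reported here.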

Additional observations from a re-analysis of the deposited data

Results flagged for a closer look

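For 2 genes the genotype effect differed between treated and untreated mice by the edgeR interaction test. Gm10260, a predicted gene on chromosome 13 with near-identical copies of Rps18, stood at 117, 111 and 121 CPM in treated heterozygous tumours and 215, 466 and 188 CPM in treated wild-type tumours, a log2 fold change of -1.32 ± 0.35, against -7.14 ± 0.45 in untreated mice, where the means were 1.11 CPM in heterozygotes and 158 CPM in wild types. The difference of effects was 5.82 ± 0.52 (edgeR adjusted p = 0.00480). With those copies summed, the treated fold change was -0.26 ± 0.35. BC023719, on chromosome 17, stood at 2.87, 2.68 and 2.71 CPM in treated heterozygous tumours and 7.87, 5.86 and 5.03 CPM in treated wild-type tumours, a log2 fold change of -1.18 ± 0.35. All untreated heterozygotes were at 0, against a mean of 4.93 CPM in untreated wild types, so the fitted difference of 9.65 ± 0.77 (edgeR adjusted p = 0.00480) depends on the prior count. With its copy A930015D03Rik summed, the treated fold change was -1.07 ± 0.36.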

How the results depend on the processing

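The count of 1 gene higher and 0 lower held with DESeq2 size factors, upper quartile factors, both other filters and the acinar covariate. DESeq2's Wald test called 174 higher, 52 of them immunoglobulin variable segments, and 60 lower, with 1048 adjusted p-values not given; the 6 treated libraries alone gave 10 and 2. The limma voom fit called 0 either way (888 higher and 561 lower at an unadjusted p under 0.05), the sex-linked covariate 0 (305 and 218) and the replicate block 0 (899 and 513), with Cdh11 at -0.075. Leaving out 1 mouse gave 0 to 3 genes higher and 0 lower, with 786 to 1412 higher and 442 to 724 lower at an unadjusted p under 0.05; the 3 came without wild-type mouse 1. Same-numbered mice of both genotypes deviated from their group means with correlations of 0.039, 0.11 and -0.032 over 24065 genes, so the numbers do not pair them. The Trim12a log2 fold change ran from 4.45 to 6.21 and kept its sign under every alternative. The Cdh11 log2 fold change, near 0, turned to 0.00085 with upper quartile factors, 0.0067 with limma voom, 0.037 with the sex-linked covariate and 0.15 with the acinar covariate, and ran from -0.30 to 0.22 when 1 mouse was left out, above 0 without heterozygous mouse 3 (0.20), wild-type mouse 1 (0.22) or wild-type mouse 3 (0.072). With the sex-linked covariate the log2 fold change turned to -0.28 for C3, -0.19 for Foxp3, -0.23 for H2-K1, -1.94 for Trim30c, -0.078 for Trim34a and 0.082 for Trim6, and without wild-type mouse 3 to 0.44 for Usp18, whose values with 1 mouse left out began at -3.34. Of 1494 gene values under alternatives, 14 had the other sign. The causes were not tested. Each library held at least 39388328 counts, and genes well under 1 CPM rest on few of them.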
